A study of Mus musculus with 10 samples.

Results

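The lysosomal hydrolases, cathepsins and lysosomal membrane proteins are described here in mouse brain, as a list of 42 genes among the 19938 genes that had a probeset with a single gene symbol. The list was drawn up by function, but with earlier results of these data known, so its counts and medians beside all genes are a description. It holds 13 cathepsins, 2 other lysosomal proteases, 7 glycosidases, and 7 lipid hydrolases, sulfatases and activator proteins. The rest are 9 lysosomal membrane proteins, 3 cystatins that inhibit cathepsins, and the transcription factor Tfeb. Each of the 42 genes was measured by 1 probeset of its own, and none was removed for a low value. The brains came from 2 groups of female, wild-type C57BL/6 mice aged 6 to 8 weeks, with 5 mice in each group. The Aldara group received 80 mg of Aldara, a cream with 5% imiquimod that activates Toll-like receptor 7, on shaved back skin every 24 h for 5 applications, and the control group received aqueous cream on the same schedule. Brains were perfused and taken 24 h after the last application, and RNA of the whole organ was hybridised to Affymetrix Mouse Gene 1.0 ST arrays, 1 array per mouse. The control cream was aqueous cream and not the Aldara base, so imiquimod and the other ingredients of Aldara cannot be told apart in this design.

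Lysosomes are the acidic compartments in which cells break down material taken up from outside and their own worn components. Cathepsins and other proteases cut proteins there, glycosidases and sulfatases remove sugars and sulfate groups, lipases and ceramidases handle lipids, and a coat of glycosylated membrane proteins keeps these enzymes contained, while a proton pump makes the interior acidic. In the brain every cell depends on lysosomes and inherited loss of single hydrolases causes storage disease of neurons, whereas microglia and macrophages are especially rich in several cathepsins that also process antigen.

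Values are log2 expression after RMA, so a difference of 1 is a doubling, and fold differences are ratios of geometric means; levels of different genes are not set against each other because each probeset has its own response. A gene was called higher or lower where limma's moderated test gave a Benjamini-Hochberg adjusted p under 0.05 over 23410 probesets. Over all of these, 12.4% were higher and 21.0% were lower in Aldara-treated brains (2901 and 4926 probesets, with a median difference of -0.04 on the log2 scale). That split moved with the scaling, to 2299 higher and 9606 lower when each array was centred on a common median, and to 3833 higher and 2760 lower when the median difference was set to 0. Array medians were 8.16 to 8.19 in the Aldara group and 8.10 to 8.14 in the control group, and the 10 arrays correlated at 0.9805 or above. Neuronal markers fitted the labelled tissue, with Snap25 at 13.20 to 13.30 in Aldara-treated brains and 13.31 to 13.39 in control brains.

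Of the 42 lysosomal genes, 33 were higher in Aldara-treated brains, 3 were lower (Ctsf, Ids and Cst3) and 6 did not pass the test (Ctsk, Neu1, Gaa, Smpd1, Mcoln1 and Tfeb). For the 33 higher genes, every Aldara-treated brain lay above every control brain, which held for 10.5% of all probesets tested, and for the 3 lower genes every Aldara-treated brain lay below every control brain, against 15.3% of all probesets. The median log2 difference over the 42 genes was 0.47, beside -0.046 over all 19938 genes. The sizes were unequal: 6 genes were at least 3-fold higher (Ctsc, Ctsh, Ctss, Cd68, Laptm5 and Grn), Ctsz and Tcirg1 were 2-fold to 3-fold higher, 7 were 1.5-fold to 2-fold higher, and 18 were higher by less than 1.5-fold. Of all probesets, 1.59% were at least 2-fold higher.

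**Figure D1:**
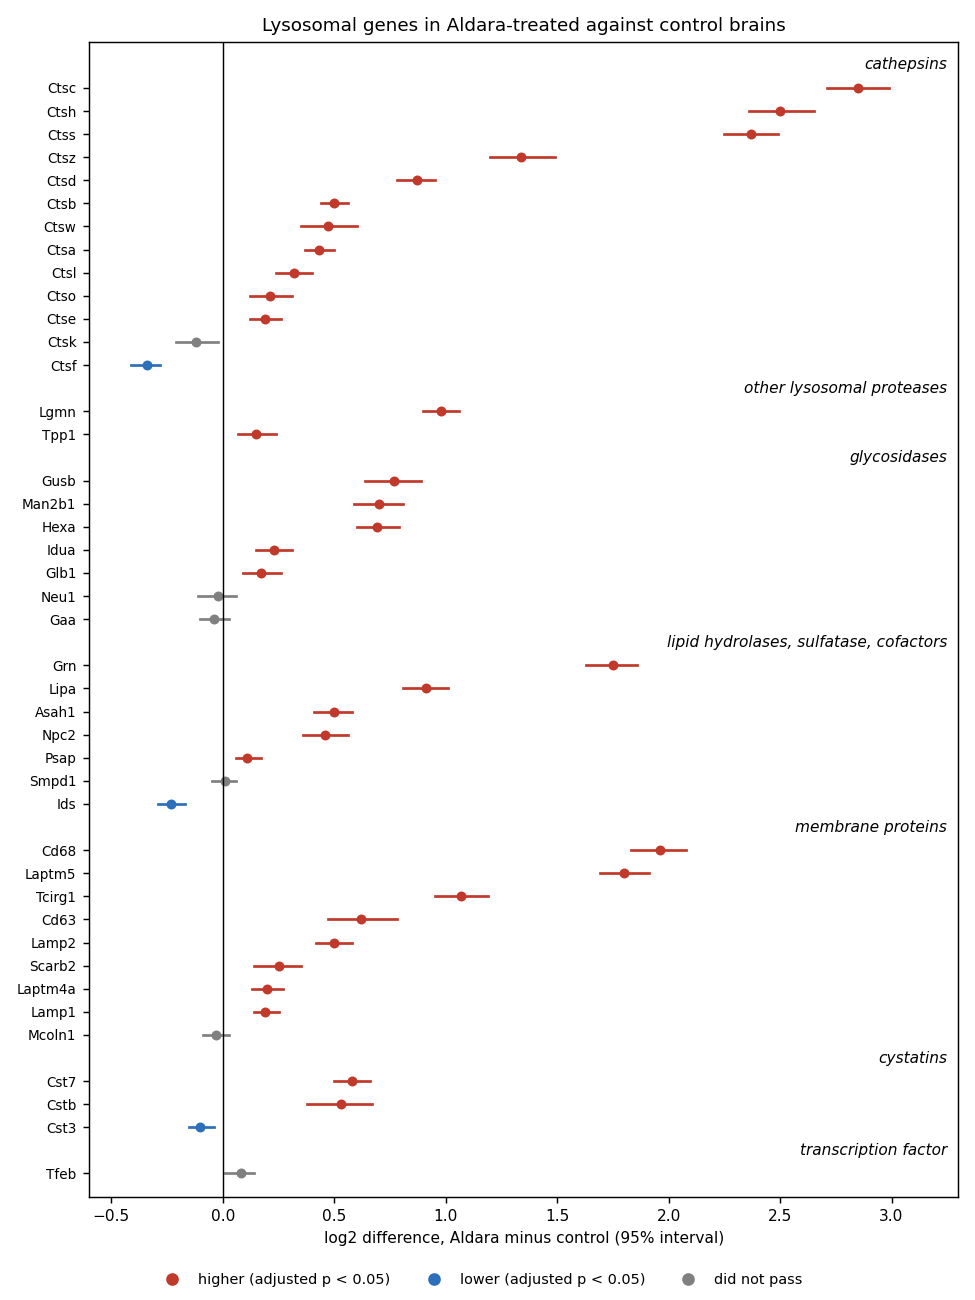
Log2 difference, Aldara minus control, for each of the 42 lysosomal genes (points, with 95% intervals from limma), grouped by role and sorted within each role; colours give the call at an adjusted p under 0.05. The 33 higher genes reach 2.85 (Ctsc), and the 3 lower genes reach -0.34 (Ctsf).

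Markers of cell types were read beside these genes, and their lists differed in direction. The 8 markers that microglia share with other myeloid cells were all higher, and their summed unlogged level was 9930 to 12200 in Aldara-treated brains and 2540 to 2760 in control brains. Of 9 measured markers of monocytes and infiltrating macrophages 8 were higher, with sums of 7870 to 9560 in Aldara-treated brains and 1420 to 1760 in control brains. Homeostatic microglial markers summed to 5710 to 6550 in Aldara-treated brains and 3710 to 4350 in control brains (5 of 8 higher, 2 lower). For NK and T cells 8 of 11 were higher and 1 was lower, with sums of 1600 to 2120 in Aldara-treated brains and 1080 to 1210 in control brains. Of 8 neutrophil markers only Csf3r was higher (2.2-fold, adjusted p = 4.8e-07 in limma's test). S100a8 and S100a9, calcium-binding proteins abundant in neutrophils, did not pass (differences of 0.09 and 0.04 on the log2 scale). The neutrophil sums were 799 to 827 in Aldara-treated brains and 626 to 693 in control brains, so 1 gene can separate a sum. Neuronal markers summed to 38000 to 39100 in Aldara-treated brains and 41400 to 42600 in control brains, with 7 of 8 lower. Endothelial markers summed to 4020 to 4600 in Aldara-treated brains and 2840 to 3270 in control brains (4 of 5 higher). Meningeal fibroblast markers summed to 2690 to 3320 in Aldara-treated brains and 1880 to 2090 in control brains (2 of 4 higher). Those 2 were Dcn and Lum, while the collagen genes Col1a1 and Col1a2 did not pass (-0.13 and -0.04 on the log2 scale). Astrocyte markers split into 3 higher and 4 lower of 7, and 1 of 5 oligodendrocyte markers was higher and 1 lower. The astrocyte sums were 22000 to 23400 in Aldara-treated brains and 23900 to 25000 in control brains. The oligodendrocyte sums overlapped, at 13700 to 14700 in Aldara-treated brains and 14500 to 15100 in control brains. Of 4 B cell and 5 dendritic cell markers 1 each was higher, with 1 dendritic cell marker lower, and the 2 red cell markers did not pass. B cell markers summed to 407 to 503 in Aldara-treated brains and 340 to 387 in control brains. Dendritic cell markers summed to 975 to 1170 in Aldara-treated brains and 819 to 882 in control brains. None of the markers is at 0 on this scale, on which the lowest value of the table is 4.73. The part of these cell types in the lysosomal differences was not tested, and in RNA of a whole brain more cells of a type and more RNA per cell cannot be told apart.

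Promoter sequence was searched for motifs of factors known to act on lysosomal or myeloid genes, and stretches that held a match are printed for 5 genes, from strongly higher (Ctsc and Ctss) to not passing (Mcoln1). RefSeq promoters (build GRCm38.p6) were matched by Entrez gene ID for 36 of the 42 genes, with 43 promoters between them. Ctsb, Ctse, Ctsh, Ctsw, Asah1 and Cstb had no entry. The 250 bases before each start were searched on both strands for 5 motifs. These were TCACGTGA, the core of the CLEAR element through which Tfeb acts, the whole CLEAR element, which is that core with G before it and C after it, the E-box CACGTG contained in both, the core GAGGAAGT of the myeloid factor PU.1, and the core of the interferon-stimulated response element, GAAA and GAAA with any 2 bases between. The stretches below carry matches in capitals and run 5′ to 3′ along the gene's strand, over 100 bases each.
Ctss, chr3:95526686-95526785, plus strand, interferon response core: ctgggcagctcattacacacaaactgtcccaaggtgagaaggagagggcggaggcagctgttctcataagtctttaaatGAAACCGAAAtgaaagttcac
Ctsc, chr7:88277886-88277985, plus strand, PU.1 core as its reverse complement: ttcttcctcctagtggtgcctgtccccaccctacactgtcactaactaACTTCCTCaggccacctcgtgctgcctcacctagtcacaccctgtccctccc
Ctsd, chr7:142387847-142387946, minus strand, CLEAR core: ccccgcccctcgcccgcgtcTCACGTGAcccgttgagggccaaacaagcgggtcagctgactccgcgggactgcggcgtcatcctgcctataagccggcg
Lamp1, chr8:13159061-13159160, plus strand, E-boxes: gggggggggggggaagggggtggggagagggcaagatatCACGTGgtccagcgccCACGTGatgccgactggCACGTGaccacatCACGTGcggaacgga
Mcoln1, chr8:3500419-3500518, plus strand, E-box and CLEAR core: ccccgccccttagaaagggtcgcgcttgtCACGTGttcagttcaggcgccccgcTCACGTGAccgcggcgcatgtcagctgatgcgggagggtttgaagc

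The stretches of Ctss, Lamp1 and Mcoln1 end at the base before the start site, that of Ctsd ends 20 bases before it and that of Ctsc ends 100 bases before it. The E-box was present in 9 of the 43 promoters (20.9%), against 6.02% of all 32851 promoters, and in 9 genes: Ctsa, Ctsd, Ctsf, Ctsl, Gaa, Glb1, Lamp1, Lgmn and Mcoln1. The CLEAR core was in 3 of the 43 (6.98%), those of Ctsa, Ctsd and Mcoln1, against 0.785% of all promoters, and the whole CLEAR element as spelled was in none of the 43, against 0.24% of all. Lamp1 alone among the printed stretches held 4 E-boxes. The 9 genes with an E-box had fold differences of 0.788 to 1.97, with a median of 1.14, and 6 of them were higher. The 27 matched genes without one ranged over 0.854 to 7.21, with a median of 1.41, and 21 were higher, 7 of them by at least 2-fold. This split was not tested.

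The interferon response core was found upstream of Ctss, Lamp1 and Tcirg1 (6.98% of the 43 promoters, against 2.98% of all), and in Ctss it lies 21 to 12 bases before the start. The PU.1 core was found upstream of Ctsc (2.33% of the 43 promoters, against 2.44% of all). The genes with these matches differed by 5.16-fold (Ctss), 1.14-fold (Lamp1), 2.1-fold (Tcirg1) and 7.21-fold (Ctsc). Ctsz, Cd68, Laptm5 and Grn, all at least 2-fold higher, and Smpd1 and Neu1, which did not pass, held none of the 5 motifs in this window. These are examples, and other matched genes held none either. Among those were Ctsk and Tfeb, which did not pass, and Gusb, Hexa and Lipa, which were higher by less than 2-fold. A match describes the letters in the window and does not show that a factor binds there.

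Among the cathepsins, 11 of 13 were higher, 1 was lower and 1 did not pass, and 4 were at least 2-fold higher. The median log2 difference of the class was 0.47. Cathepsin C, a dipeptidyl peptidase that activates the serine proteases of immune cell granules, differed most of all 42 genes. Ctsc measured 10.97, 10.64, 10.89, 10.68 and 10.69 in the Aldara-treated brains, against 7.83, 7.96, 7.87, 7.91 and 8.04 in the control brains. The groups were separated by 2.59 log2 units at their nearest brains, and the fold difference was 7.21-fold (95% interval 6.52 to 7.97, adjusted p = 3.6e-11). Of all 19938 genes, 0.201% had a larger log2 difference. Cathepsin H, an aminopeptidase, followed. Ctsh values were 10.41, 10.15, 10.33, 10.23 and 10.52 in the Aldara-treated brains, against 7.70, 7.92, 7.85, 7.79 and 7.88 in the control brains. All Aldara-treated brains were again far above the highest control brain, and the mean was higher by 5.66-fold (95% interval 5.12 to 6.26, adjusted p = 1.1e-10).

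Cathepsin S, which trims the invariant chain so that antigen-presenting cells can load peptides on MHC class II, had values of 11.52, 11.33, 11.49, 11.36 and 11.47 in the Aldara-treated brains, against 9.05, 8.95, 8.99, 9.10 and 9.23 in the control brains. Ctss, whose promoter stretch with the interferon response core is printed above, was higher by 5.16-fold (95% interval 4.75 to 5.61, adjusted p = 3.6e-11). The 5 brains of each group lay close together, and the nearest brains of the groups were 2.11 log2 units apart. Cathepsin Z, a carboxypeptidase, was the other member of the class above 2-fold. Ctsz gave 10.75, 10.65, 10.89, 10.75 and 10.97 in the Aldara-treated brains, against 9.47, 9.27, 9.52, 9.51 and 9.53 in the control brains. The lowest control brain, replicate 2, stood apart from the others, and the fold difference was 2.54-fold (95% interval 2.3 to 2.8, adjusted p = 2.2e-08).

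The other cathepsins that passed as higher differed by less. Cathepsin D, the main aspartic protease of lysosomes, measured 12.51, 12.46, 12.42, 12.52 and 12.35 in the Aldara-treated brains, against 11.61, 11.54, 11.53, 11.60 and 11.65 in the control brains. Its brains did not overlap, and Ctsd was higher by 1.82-fold (95% interval 1.72 to 1.93, adjusted p = 9.1e-09). The endopeptidases cathepsin B and cathepsin L were higher by 1.42-fold (adjusted p = 5.3e-08) and by 1.25-fold (adjusted p = 3.7e-05). Cathepsin A, a carboxypeptidase that also shields beta-galactosidase and neuraminidase from breakdown, was higher by 1.35-fold (adjusted p = 3.2e-07). Cathepsin W, which is expressed in cytotoxic lymphocytes, spanned 7.00 to 7.18 in Aldara-treated brains and 6.47 to 6.75 in control brains, and was higher by 1.39-fold (adjusted p = 6.5e-05). Cathepsin O, a little-studied cysteine protease, and cathepsin E, an aspartic protease of immune and epithelial cells, were the least changed of those that passed, at 1.16-fold (adjusted p = 0.0022) and 1.14-fold (adjusted p = 0.00077). Ctsw and Ctse were among the dimmer probesets, whose differences RMA compresses, so the sizes of their fold differences are uncertain.

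Cathepsin F, a cysteine protease whose loss in people causes an adult-onset storage disease of neurons, went the other way. Ctsf measured 8.98, 8.99, 9.02, 9.05 and 9.02 in the Aldara-treated brains, against 9.33, 9.32, 9.35, 9.33 and 9.44 in the control brains. The highest Aldara-treated brain lay 0.27 log2 units below the lowest control brain, and the mean was 0.788 times the control mean (95% interval 0.752 to 0.825, adjusted p = 4.2e-06). Of all genes, 99.3% had a larger log2 difference. Cathepsin K, the collagenase of bone-resorbing osteoclasts, lies next to Ctss on chromosome 3 in the RefSeq annotation. Ctsk values were 7.03, 7.08, 7.03, 7.07 and 7.06 in the Aldara-treated brains, against 7.03, 7.11, 7.24, 7.22 and 7.26 in the control brains. The groups overlapped through control replicate 1, which lay inside the Aldara range, and the difference of -0.12 ± 0.043 (SE, adjusted p = 0.053) missed the threshold. Ctsk passed as lower when control replicate 1 was left out (-0.15, adjusted p = 0.0081) or control replicate 2 (-0.13, adjusted p = 0.046).

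**Figure D2:**
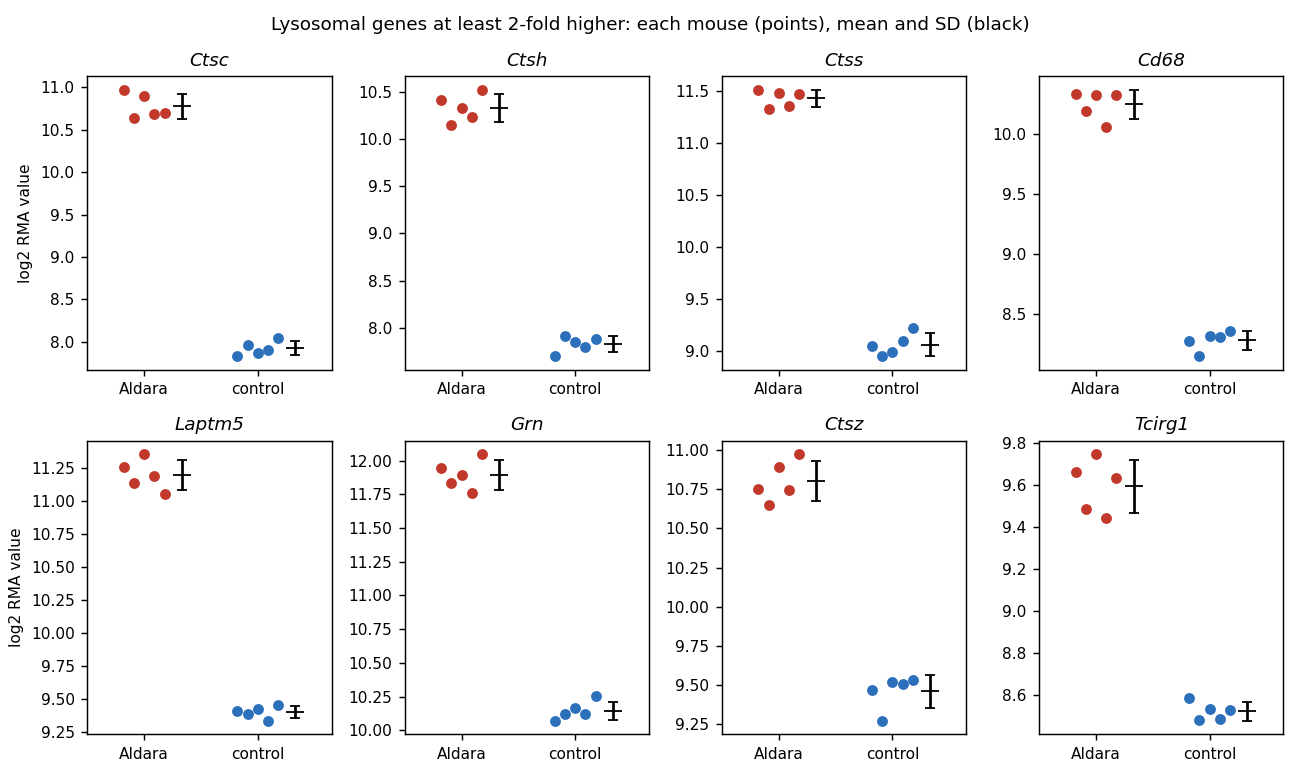
Log2 RMA value in each mouse (points) of the 8 lysosomal genes at least 2-fold higher, Aldara left of control in every panel, with the group mean and SD (black); each panel has its own vertical range. The groups do not overlap for Ctsc, at 10.64 to 10.97 in Aldara-treated brains and 7.83 to 8.04 in control brains.

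Both of the other lysosomal proteases were higher. Legumain, an asparaginyl endopeptidase that also processes cathepsins, measured 12.08, 11.89, 12.01, 12.03 and 12.10 in the Aldara-treated brains, against 11.05, 11.03, 11.02, 11.04 and 11.08 in the control brains. The Aldara-treated brains were all well above the narrow control range, and Lgmn was higher by 1.97-fold (95% interval 1.86 to 2.09, adjusted p = 2.6e-09). Tripeptidyl peptidase 1, which is lost in a childhood storage disease of neurons in people, was 10.39 to 10.55 in Aldara-treated brains and 10.23 to 10.39 in control brains. These groups met almost edge to edge, with 0.01 log2 units between them, and the fold difference of Tpp1 was 1.11-fold (adjusted p = 0.01).

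Of the 7 glycosidases 5 were higher, none was lower, none reached 2-fold, and the median log2 difference was 0.23. Beta-glucuronidase, which acts on glycosaminoglycans, differed most. Gusb measured 8.63, 8.40, 8.72, 8.61 and 8.53 in the Aldara-treated brains, against 7.87, 7.81, 7.80, 7.89 and 7.70 in the control brains, a difference of 1.7-fold (95% interval 1.56 to 1.85, adjusted p = 8.7e-07). Lysosomal alpha-mannosidase (Man2b1) and the alpha subunit of beta-hexosaminidase (Hexa), which takes part in the breakdown of ganglioside GM2, were higher by 1.62-fold (adjusted p = 7.2e-07) and 1.62-fold (adjusted p = 1.9e-07). Man2b1 spanned 10.03 to 10.29 in Aldara-treated brains and 9.42 to 9.57 in control brains, so the groups were well apart. Hexa spanned 10.34 to 10.53 in Aldara-treated brains and 9.66 to 9.80 in control brains, again without overlap. Alpha-L-iduronidase (Idua) and beta-galactosidase (Glb1) were higher by 1.17-fold (adjusted p = 0.00044) and 1.13-fold (adjusted p = 0.0059), and for Glb1 the lowest Aldara-treated brain and the highest control brain were both at 9.26 after rounding.

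The remaining 2 glycosidases did not pass. The sialidase Neu1 measured 8.97, 8.85, 8.91, 8.94 and 8.91 in the Aldara-treated brains, against 8.96, 8.91, 8.83, 8.98 and 9.02 in the control brains. Its groups overlapped along most of their range, and the log2 difference was -0.02 ± 0.038 (SE, adjusted p = 0.68) with a 95% interval of -0.11 to 0.06. The glycogen-degrading Gaa gave 11.28, 11.27, 11.28, 11.20 and 11.28 in the Aldara-treated brains, against 11.26, 11.28, 11.29, 11.32 and 11.34 in the control brains. The log2 difference of Gaa was -0.04 ± 0.028 (SE, adjusted p = 0.36), with an interval of -0.10 to 0.03. With arrays centred on a common median Gaa was called lower (-0.08, adjusted p = 0.023), so that the class then held 5 higher and 1 lower.

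Among the lipid hydrolases, sulfatase and activator proteins, 5 of 7 were higher, 1 was lower and 1 did not pass, with a median log2 difference of 0.46. Progranulin, the precursor of granulins in the lysosome and a protein whose shortage in people causes frontotemporal dementia, led this class. Grn measured 11.94, 11.83, 11.89, 11.76 and 12.05 in the Aldara-treated brains, against 10.07, 10.12, 10.17, 10.12 and 10.25 in the control brains. Every Aldara-treated brain was at least 1.51 log2 units above every control brain, and the fold difference was 3.36-fold (95% interval 3.1 to 3.64, adjusted p = 2.7e-10). Lysosomal acid lipase, which frees cholesterol and fatty acids from lipoprotein lipids, had values of 9.95, 9.75, 9.86, 9.77 and 9.91 in the Aldara-treated brains, against 8.92, 9.0, 8.92, 8.86 and 9.0 in the control brains. The groups did not overlap, and Lipa was higher by 1.88-fold (95% interval 1.75 to 2.01, adjusted p = 2.6e-08).

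Acid ceramidase (Asah1) and the cholesterol carrier Npc2 were higher by 1.41-fold (adjusted p = 2.5e-06) and 1.37-fold (adjusted p = 9.3e-06). Asah1 spanned 11.22 to 11.44 in Aldara-treated brains and 10.78 to 10.87 in control brains. For Npc2 the groups were also apart, and Aldara replicate 5 at 9.69 stood above the other Aldara-treated brains at 9.45 to 9.51. Prosaposin, the precursor of the saposins that help hydrolases reach sphingolipids, was 13.07 to 13.10 in Aldara-treated brains and 12.93 to 13.02 in control brains, a small difference of 1.08-fold (adjusted p = 0.0056) that was lost when arrays were centred on a common median (adjusted p = 0.056). Acid sphingomyelinase, Smpd1, measured 11.58, 11.60, 11.62, 11.62 and 11.61 in the Aldara-treated brains, against 11.62, 11.60, 11.56, 11.63 and 11.59 in the control brains. Its groups covered the same narrow range, and the log2 difference of 0.01 ± 0.025 (SE, adjusted p = 0.87) had a 95% interval of -0.05 to 0.06. Iduronate-2-sulfatase, which removes sulfate from the glycosaminoglycans that Idua then cuts, was the lower gene of this class. Ids measured 11.70, 11.75, 11.72, 11.70 and 11.75 in the Aldara-treated brains, against 11.93, 11.91, 11.93, 11.98 and 12 in the control brains. The Aldara-treated brains were all below the control brains, at 0.854 times the control mean (95% interval 0.819 to 0.891, adjusted p = 7.2e-05).

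Of the 9 membrane proteins 8 were higher, none was lower and 3 were at least 2-fold higher, with a median log2 difference of 0.50. Cd68 is a LAMP-family glycoprotein of macrophage and microglial lysosomes. It measured 10.33, 10.19, 10.32, 10.06 and 10.32 in the Aldara-treated brains, against 8.28, 8.15, 8.32, 8.31 and 8.36 in the control brains. The lowest Aldara-treated brain, replicate 4, was still 1.70 log2 units above the highest control brain, and Cd68 was higher by 3.88-fold (95% interval 3.56 to 4.24, adjusted p = 2.1e-10). Laptm5, a transmembrane protein of lysosomes in haematopoietic cells, gave 11.26, 11.14, 11.36, 11.19 and 11.06 in the Aldara-treated brains, against 9.41, 9.38, 9.43, 9.34 and 9.45 in the control brains. The fold difference of Laptm5 was 3.48-fold (95% interval 3.22 to 3.76, adjusted p = 1.5e-10). The proton pump subunit Tcirg1, which is typical of osteoclasts and immune cells, measured 9.66, 9.49, 9.75, 9.44 and 9.63 in the Aldara-treated brains, against 8.59, 8.48, 8.54, 8.49 and 8.53 in the control brains. Its groups were 0.85 log2 units apart, and Tcirg1 was higher by 2.1-fold (95% interval 1.94 to 2.28, adjusted p = 3e-08).

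The membrane proteins found in lysosomes of most cells differed less. Lamp2, which takes part in autophagy and protects the lysosomal membrane, measured 11.57, 11.48, 11.57, 11.58 and 11.70 in the Aldara-treated brains, against 11.09, 11.11, 11.07, 11.03 and 11.10 in the control brains. All Aldara-treated brains were above the control brains, and Lamp2 was higher by 1.41-fold (adjusted p = 1.3e-06). Its relative Lamp1 gave 11.79, 11.81, 11.72, 11.75 and 11.76 in the Aldara-treated brains, against 11.55, 11.57, 11.60, 11.59 and 11.55 in the control brains. The groups were again separate but nearer, and Lamp1 was higher by 1.14-fold (adjusted p = 0.00017). The tetraspanin Cd63, the glucocerebrosidase carrier Scarb2 and the broadly expressed Laptm4a were higher by 1.54-fold (adjusted p = 3.8e-05), 1.19-fold (adjusted p = 0.0015) and 1.15-fold (adjusted p = 0.00041). Mcoln1, a cation channel that releases calcium from lysosomes, measured 11.05, 11.05, 11.06, 11.00 and 11.01 in the Aldara-treated brains, against 11.07, 11.03, 11.05, 11.08 and 11.09 in the control brains. Its promoter stretch holds the CLEAR core. Its groups overlapped, and the log2 difference was -0.03 ± 0.026 (SE, adjusted p = 0.43) with an interval of -0.09 to 0.03. With arrays centred on a common median Mcoln1 was called lower (-0.08, adjusted p = 0.026), which gave 8 higher and 1 lower in the class.

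The 3 cystatins, inhibitors of cysteine cathepsins, did not move together. Cystatin F, which reaches lysosomes of immune cells and restrains cathepsin C there, had Cst7 values of 6.97, 6.99, 6.96, 7.02 and 7.08 in the Aldara-treated brains, against 6.37, 6.43, 6.53, 6.42 and 6.39 in the control brains. The groups were 0.44 log2 units apart, and Cst7 was higher by 1.49-fold (95% interval 1.41 to 1.57, adjusted p = 2.2e-07). The cytosolic inhibitor Cstb measured 9.99, 9.85, 9.92, 9.77 and 10.18 in the Aldara-treated brains, against 9.43, 9.41, 9.50, 9.41 and 9.31 in the control brains. Its Aldara-treated brains were the more spread, and the fold difference was 1.44-fold (95% interval 1.3 to 1.59, adjusted p = 9e-05). Cst3, the secreted inhibitor cystatin C that astrocytes, neurons and choroid plexus release, gave 13.54, 13.53, 13.54, 13.54 and 13.56 in the Aldara-treated brains, against 13.62, 13.61, 13.65, 13.62 and 13.69 in the control brains. Here the Aldara-treated brains were all slightly below the control brains, at 0.936 times the control mean (95% interval 0.901 to 0.973, adjusted p = 0.013). This call was lost when the median difference over all probesets was set to 0 (-0.05, adjusted p = 0.15).

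Tfeb, the transcription factor that switches on many lysosomal genes when it enters the nucleus, measured 7.97, 7.96, 8.03, 7.95 and 7.90 in the Aldara-treated brains, against 7.89, 7.94, 7.85, 7.91 and 7.84 in the control brains. The groups overlapped, and the log2 difference was 0.08 ± 0.031 (SE, adjusted p = 0.087). It passed as higher when Aldara replicate 5 was left out (adjusted p = 0.047), when arrays were weighted (0.044) and when the median difference was set to 0 (0.015). RNA level does not measure the location of the protein.

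**Figure D3:**
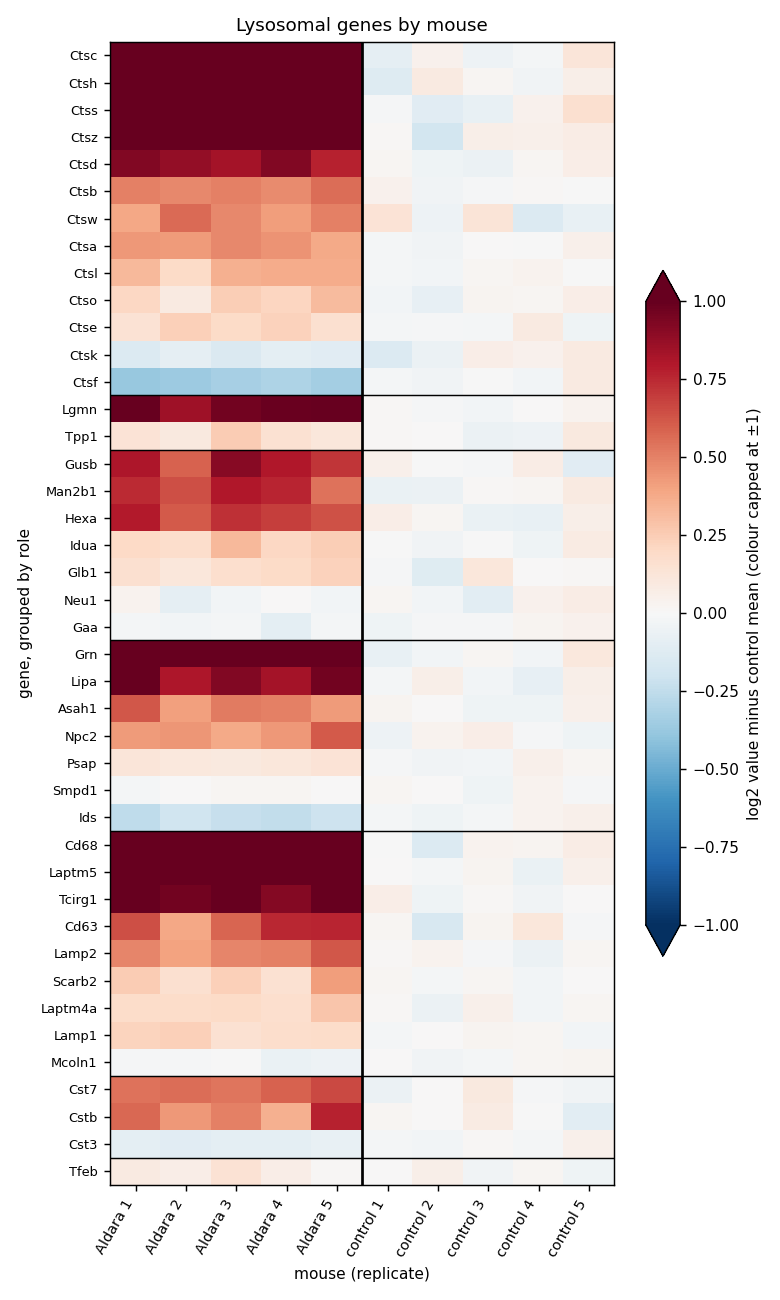
Log2 difference of each of the 42 lysosomal genes (rows, by role) in each mouse from the control mean of that gene, with the 5 Aldara-treated mice left of the 5 control mice; colours are capped at a difference of 1 in either direction. Averaged over the 42 genes, the difference was 0.57 to 0.66 in the Aldara-treated mice and -0.03 to 0.03 in the control mice.

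The Aldara-treated mice were alike in the size of the difference. Averaged over the 42 genes, their log2 differences from the control mean were 0.65, 0.57, 0.65, 0.61 and 0.66, while the control mice lay between -0.03 and 0.03. Aldara replicate 5 was the highest Aldara-treated brain for 15 of the 33 higher genes, and Aldara replicate 2 was the lowest for 16. Such counts over all higher probesets are not given here, so nothing particular to the lysosomal genes is read from either count. The membrane proteins averaged 0.66 to 0.78 in the Aldara-treated mice and -0.05 to 0.02 in the control mice. The glycosidases averaged 0.29 to 0.41 in the Aldara-treated mice and -0.04 to 0.04 in the control mice. Both ranges for the Aldara-treated mice were narrow beside their distance from the controls.

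Related genes were compared within each brain, as the log2 ratio of 2 genes set to 0 at the control mean, for 6 pairs of relatives. The pairs were chosen with the fold differences of their members known, so the ratios are given as a description, with no test. In each pair every Aldara-treated brain lay above every control brain. For Ctss over Ctsl the ratio was 1.92 to 2.13 in Aldara-treated brains and -0.09 to 0.17 in control brains, a difference of 2.04 ± 0.058 (SE). For Laptm5 over Laptm4a the ratio was 1.38 to 1.77 in Aldara-treated brains and -0.04 to 0.04 in control brains, a difference of 1.60 ± 0.067 (SE). For Cd68 over Lamp1 it was 1.60 to 1.88 in Aldara-treated brains and -0.14 to 0.10 in control brains, a difference of 1.76 ± 0.068 (SE).

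For Lamp2 over Lamp1 the ratio was 0.17 to 0.44 in Aldara-treated brains and -0.07 to 0.05 in control brains, so the groups were closest in this pair, with a difference of 0.31 ± 0.05 (SE). The inhibitors Cst7 and Cstb gained on Cst3 by 0.67 ± 0.036 and 0.62 ± 0.077 (SE). Cst7 was not among the brighter probesets, and RMA compresses differences of dim ones, so the sizes of its fold difference and its ratio are uncertain. Without single brains, under quantile normalisation, with limma and with a gene's probesets averaged, the 6 differences kept their sign.

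**Figure D4:**
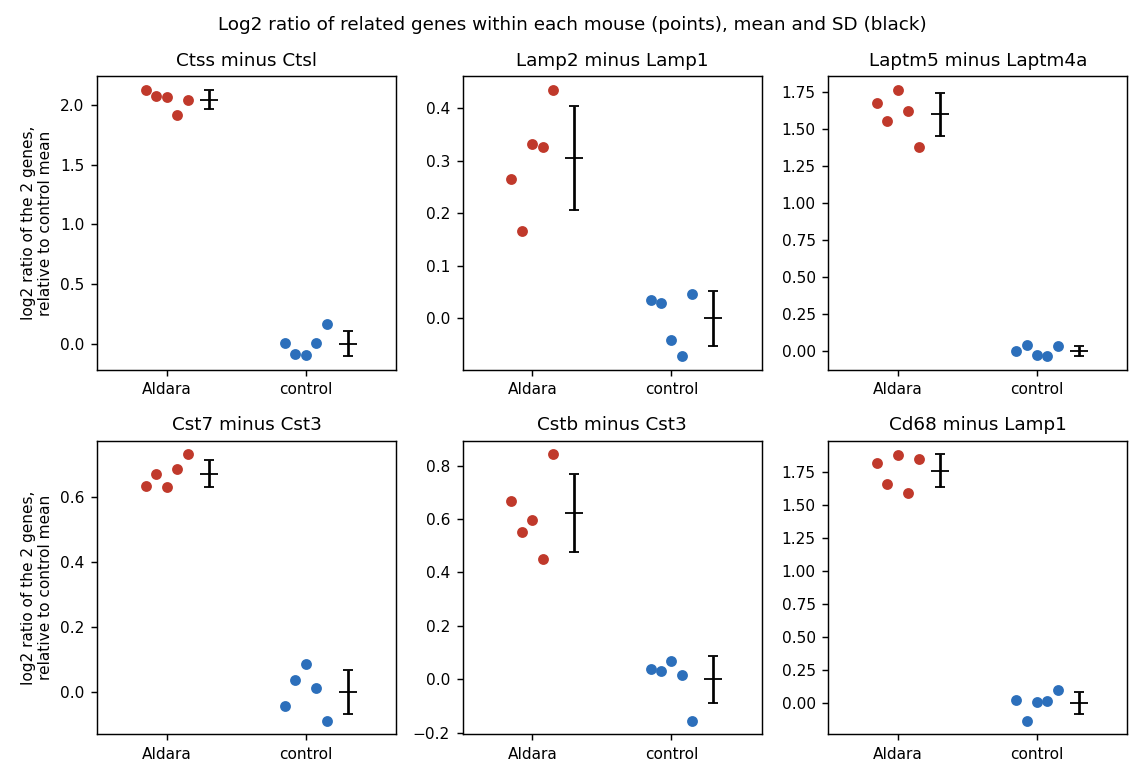
Log2 ratio of 2 related lysosomal genes within each mouse (points), relative to the control mean, with the group mean and SD (black); Aldara is left of control. The difference between groups ranged from 0.31 (Lamp2 over Lamp1) to 2.04 (Ctss over Ctsl).

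Further genes of the lysosome were read from lists that hold none of the 42. Over 94 measured genes of 109 listed, 27 were higher, 12 were lower and 55 did not pass, with a median log2 difference of 0. With arrays centred on a common median these became 26 higher and 36 lower, and with the median difference set to 0 they became 31 higher and 4 lower. Most further glycosidases were higher, at 7 of 9 (median 0.22). In the list labelled proteases and nucleases, which also holds phosphatases, thioesterases and a phospholipase, 9 of 10 genes passed as higher (median 0.41). Of 6 sulfatases and their modifiers 3 were higher and 1 was lower (median 0.11). Acp5, the tartrate-resistant acid phosphatase of osteoclasts and macrophages, measured 10.50, 9.93, 10.25, 9.83 and 9.82 in the Aldara-treated brains, against 7.28, 7.38, 7.04, 7.17 and 7.26 in the control brains. Its groups were 2.44 log2 units apart, and Acp5 was higher by 7.16-fold (95% interval 5.95 to 8.62, adjusted p = 7.2e-09). Among the others, Prcp and Pla2g15, a lysosomal carboxypeptidase and phospholipase, were higher by 1.52-fold (adjusted p = 3.1e-06) and 1.51-fold (adjusted p = 2.3e-07). The alpha-galactosidase Gla and the mannosidase Man2b2 were higher by 1.36-fold (adjusted p = 6.5e-06) and 1.44-fold (adjusted p = 1.1e-06).

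The membrane, acidification and sorting genes were called in both directions, beside 12.4% higher and 21.0% lower over all probesets, and nothing particular to these lists is read from their counts. Of 17 further membrane and cofactor genes 3 were higher and 4 were lower (median 0.01), and 1 of the 3 was Gpnmb, a glycoprotein of phagocytes. Gpnmb measured 9.41, 9.19, 9.53, 9.18 and 10.03 in the Aldara-treated brains, against 6.89, 6.95, 7.13, 7.04 and 7.29 in the control brains. Aldara replicate 5 was the highest brain, and Gpnmb was higher by 5.31-fold (95% interval 4.28 to 6.6, adjusted p = 1.5e-07). Of 18 subunits of the proton pump 3 were higher and 6 were lower (median -0.02). Atp6v0e was higher by 1.36-fold (adjusted p = 9.4e-07), while the neuron-enriched subunit Atp6v1g2 was at 0.864 times the control mean (adjusted p = 0.00033). Of 16 genes that sort enzymes to lysosomes 1 was higher (Nagpa, 1.16-fold, adjusted p = 0.0014) and 1 was lower (Sort1, 0.881 times the control mean, adjusted p = 2e-04). Tfe3, a relative of Tfeb, was higher by 1.1-fold (adjusted p = 0.0071), and the other 2 factors of that list did not pass. None of 7 further cathepsins of restricted tissues and none of 8 further cystatins passed limma's test in either direction. Most of their probesets lay low on this scale, whose lowest value is 4.73, and whether they lay above background is not known. The lack of a call is therefore not read as a lack of change.

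**Figure D5:**
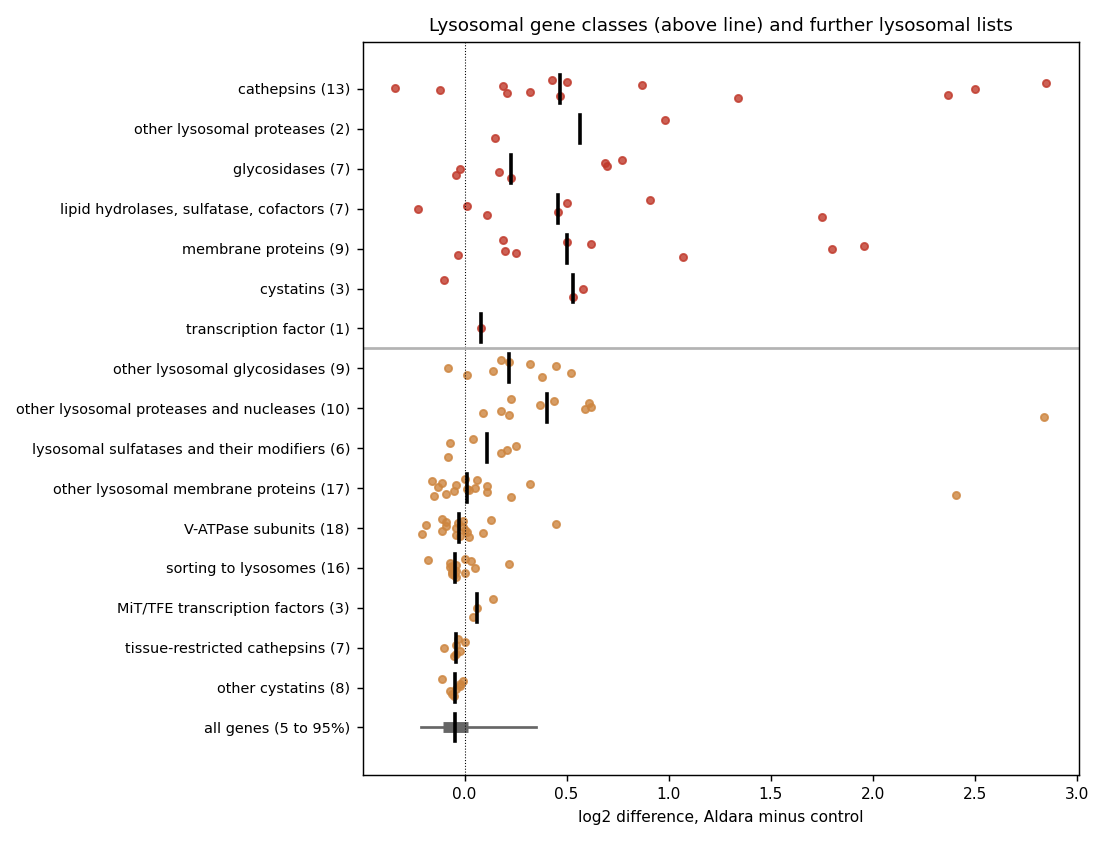
Log2 difference, Aldara minus control, of each gene (points) and the median of its list (black bar), for the classes of the 42 lysosomal genes (above the grey line) and for further lysosomal lists (below it). The last row gives all genes, with a median of -0.046, the middle 50% as a thick bar and 5% to 95% (-0.21 to 0.35) as a thin one.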

How the data were processed

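RNA of perfused whole brains from 5 Aldara-treated and 5 control mice was measured on Affymetrix Mouse Gene 1.0 ST arrays, 1 array per mouse, which the labels call biological replicates. The deposited log2 values of 28856 probesets come from RMA, run by the authors in GeneSpring GX; background correction, quantile normalisation and probe summarisation in RMA compress differences of dim probesets, and whether a probeset lay above background is not known here. The annotation gave 21789 probesets 1 gene symbol, 1621 several and 5446 none. The 23410 probesets with a symbol were fitted with lmFit and eBayes in limma 3.58.1 (R 4.3.3), two-sided, with Benjamini-Hochberg adjustment over all of them and no filter on low values. A gene was read from its 1-symbol probeset with the highest mean. The number of arrays, and not depth, limits the precision.

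The 42 members, the lists and the pairs were chosen with earlier results of these data known. All 42 members could be named, and of each further lysosomal list the 3 genes with the smallest p past the threshold. Cell type markers were given as summed unlogged values and counts, with few named. The within-brain ratios of 6 pairs were described, with no test. Motifs were matched in Python 3.11.15. On simulated data with 200 of 23410 probesets changed, the fit recovered 97% of 1.5-fold and 100% of 3-fold changes, with 12 false calls among 209. The simulated noise was independent between probesets, and far fewer probesets were changed than the 33.4% called in the data. Recovery of changes under 1.5-fold, as in 18 of the 33 higher genes, was not measured. Alternatives covered scaling, the probesets tested, a filter on dim probesets, the variance model, the methods' t-test, array weights, a replicate block and leaving out each array. The shared replicate numbers of the labels were not used as pairs. Scan dates were not used here. No arrays held identical values.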

Additional observations from a re-analysis of the deposited data

Results flagged for a closer look

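Single brains stood apart from the other 4 of their group in 7 of the 84 sets of 5 values (42 genes in each group), by Dixon's test at 95%, where chance flags about 5% of sets, or 4.2 of 84. In the Aldara group, replicate 2 was low for Ctsl at 10.58 (others 10.71 to 10.76), replicate 4 was low for Gaa at 11.20 (others 11.27 to 11.28), and replicate 5 was high for Npc2 at 9.69 (others 9.45 to 9.51) and for Laptm4a at 12.02 (others 11.91 to 11.94). In the control group, replicate 2 was low for Ctsz at 9.27 (others 9.47 to 9.53), replicate 4 was high for Ctse at 6.63 (others 6.49 to 6.53), and replicate 5 was high for Ctsf at 9.44 (others 9.32 to 9.35). Without each of these brains in turn the calls of these 7 genes did not change.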

How the results depend on the processing

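The count of higher genes among the 42 was 30 to 34 under all alternatives run, the 30 being reached when the probesets tested were restricted to the brighter ones, which leave out 5 of the 42. Of 1254 values of single genes under alternatives (60 genes, 21 settings), 1235 kept their direction and their side of the threshold, 2 lost the call, 11 gained it and 6 changed sign. With arrays centred on a common median, 6 of the 42 were lower, with 2 cathepsins, 1 glycosidase, 1 membrane protein and 36 of the further lysosomal genes, and the medians were 0.42 for cathepsins and 0.18 for glycosidases. With the median difference set to 0, 4 further lysosomal genes were lower and the cathepsin median was 0.51. Under quantile normalisation, with only probesets of 1 symbol and with a gene's probesets averaged, 2 cathepsins were lower, the added one being Ctsk. The brighter probesets gave a cathepsin median of 0.68, since Ctse, Ctsk and Ctsw drop out there. The changes of sign were in genes that did not pass in the fit reported: Neu1 (0.02), Gaa (0.01) and Mcoln1 (0.01) with the median difference set to 0, and Smpd1 with arrays centred (-0.04), under quantile normalisation (-0.01) and without control replicate 3 (0.00). Apart from those named by construction, the cause was not tested.

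With the replicate number as a block, 33 of the 42 genes were higher and 3 lower, and 7 further lysosomal genes were lower. Over all probesets the block gave 2701 higher and 4421 lower. Deviations from the group means correlated at -0.11 to 0.25 between samples of the same number. Of the 5 Aldara-treated samples, 2 correlated best with their own number. The labels give only the number, and whether samples of the same number were handled together was not tested. Leaving out each array in turn gave 33 to 34 higher and 3 to 4 lower genes among the 42, 1 to 2 lower cathepsins, a cathepsin median of 0.44 to 0.51, and 26 to 28 higher and 8 to 14 lower further lysosomal genes. With 5 arrays a group and values on a log2 scale, differences such as that of Smpd1 are bounded by their interval and are not shown to be 0.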
